A study of Arabidopsis thaliana with 12 samples.

Results

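The genes described here are the 10 that write and erase cytosine methylation in Arabidopsis thaliana, namely the DNA methyltransferase genes MET1 (AT5G49160), MET2 (AT4G14140), CMT2 (AT4G19020), CMT3 (AT1G69770), DRM1 (AT5G15380) and DRM2 (AT5G14620) and the DNA demethylase genes ROS1 (AT2G36490), DME (AT5G04560), DML2 (AT3G10010) and DML3 (AT4G34060). They were taken by gene ID from the 33610 gene IDs of the mRNA files, and all 10 were found. RNA came from inflorescences of wild-type plants of the Columbia (Col) ecotype and of amiRSEAP1 plants of the same ecotype (amiR-SEAP1 below), which carry an artificial miRNA against SEAP1, to ask how mRNA and miRNA accumulation differs when SEAP1 is targeted. All plants grew untreated in cycles of 16 h light and 8 h dark at 22 °C, and the labels give neither their age, the promoter of the artificial miRNA nor the number of transgenic lines. The mRNA arm has 4 libraries per genotype and the small RNA arm 2 per genotype.

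In plants, cytosines are methylated in 3 sequence contexts. MET1 copies CG methylation at each round of DNA replication, CMT3 and CMT2 maintain methylation outside CG at chromatin that carries methylated histones, and DRM2 methylates new sites under the guidance of small interfering RNAs. ROS1, DME, DML2 and DML3 are DNA glycosylases that cut out the methylated base, ROS1 in most plant tissues and DME in the central cell of the ovule and the vegetative cell of pollen. Some of these transcripts are reported miRNA targets: miR773 pairs with MET2, miR823 with CMT3 and miR402 with DML3.

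The 8 mRNA libraries formed 2 sets by their file headers, FLW (replicates 1 and 2) and AI (replicates 3 and 4), and each set holds both genotypes. The sources used here do not explain FLW or AI. The amiR-SEAP1 headers read R15 in the FLW set and R155 in the AI set, and the labels do not say whether these are 1 plant line. Within a set, same-genotype libraries differed by a median coefficient of variation of 1.63% to 1.75% for genes at 20 FPKM (fragments scaled by transcript length and by mapped depth) or more, against 12.1% in wild type and 9.06% in amiR-SEAP1 between the sets. Each pair was therefore counted as 1 sample in mean ± SD (n = 2 sets per genotype), and the test of genotype carries a within-pair correlation, estimated at 0.906. Whether the samples are separate plants is not in the labels, and p-values cover only the spread among these samples, possibly technical in origin. SEAP1 matched 0 reference symbols or synonyms, so its own level is not analysed here. AG, an identity gene of stamens and carpels, lay at 46.6 to 63.0 FPKM in all 8 libraries, and pollen, tapetum and green tissue markers were present in all of them.

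Of the 10 transcripts, 8 reached the mean of 1 FPKM needed for testing, and MET2 and DRM1 did not. In mean level over the 8 libraries the order was CMT3 (30.1 FPKM), ROS1 (28.4), MET1 (22.8), DME (11.6), CMT2 (10.9), DRM2 (8.997), DML2 (8.89), DML3 (1.95), DRM1 (0.678) and MET2 (0.343). FPKM is per transcript length, so these levels can be set side by side. Neighbours in this order overlapped in their range over libraries, except that every MET1 value lay above every DME value, every DML2 value above every DML3 value, and every DML3 value above every DRM1 value. Within each methyltransferase type 1 gene held most of the transcripts: MET1 was 44.1 to 104 times as high as MET2 in a library, DRM2 8.47 to 23.9 times as high as DRM1, and CMT3 2.53 to 2.99 times as high as CMT2. ROS1 made up 52.4% to 58.7% of the summed FPKM of the 4 demethylase genes.

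**Figure D1:**
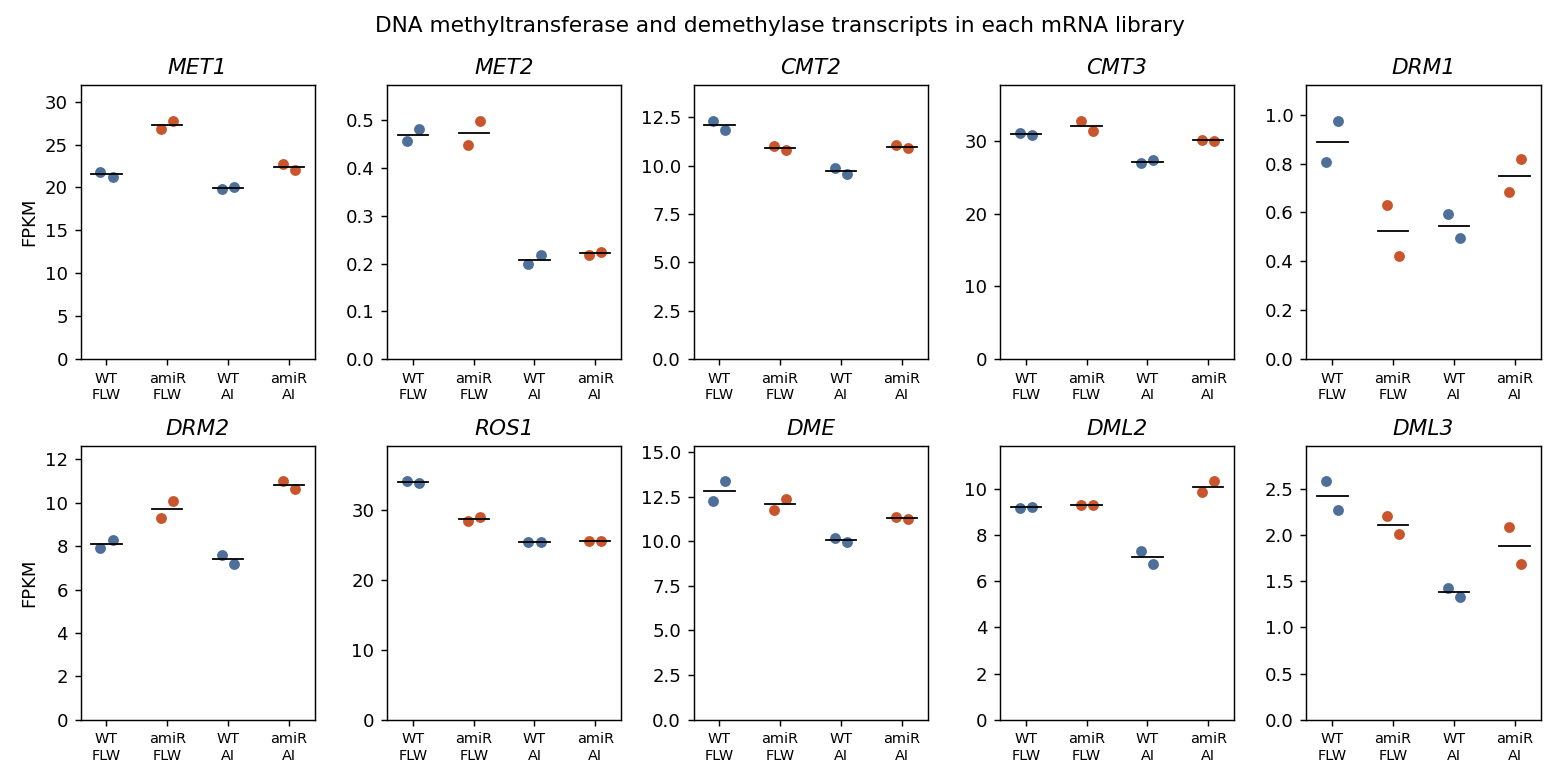
FPKM of each gene (y axis, from 0) in each mRNA library, by genotype (blue wild type, orange amiR-SEAP1) and header set (x axis). Points are libraries and bars are pair means. All 4 amiR-SEAP1 libraries lie above all 4 wild-type libraries for MET1, DRM2 and DML2, and MET2 separates by header set.

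Between the genotypes none of the 8 tested transcripts passed limma's test at an FDR of 0.05 (0 higher and 0 lower; DRM2 was the 1 gene at an unadjusted p under 0.05, which 4.96% of all genes reached as higher and 4.69% as lower). Over all 20743 genes tested, 0.231% were called higher and 0.082% lower. With the 8 libraries taken as independent limma called DRM2 higher and no member lower (background 7.5% higher and 4.7% lower). The main test has no term for the header set. The difference between the sets, partly shared by the genotypes, therefore adds to the spread it is set against. With the header set as a term beside the within-pair correlation, limma called MET1 and DRM2 higher and no member lower (background 7.44% and 7.59%). The replicate number as a block gave the same 2 calls (background 13.7% higher and 11.1% lower), while the test on pair means called 0 members and 0 of all genes. The block, like the fit on 8 independent libraries, counts the 2 libraries of a pair as separate samples. For MET1, DRM2 and DML2 the lowest amiR-SEAP1 value lay above the highest wild-type value, which held for 14.8% of all tested genes, and no member had the reverse (9.56% of all tested genes). Within the sets, 4 of the 8 were higher in both (36.7% of all genes), 0 lower in both (28.9%) and 4 of opposite sign (34.4%). The estimate was positive for 7 of the 8 (55.1% of all genes), and their median log2 difference was 0.08, against 0.03 for all genes tested. The genotype difference itself differed between the sets for 7 of the 8 in limma's interaction test, 6 more positive in AI (24% of all genes) and 1 more negative (18.9%), a test set against the spread within pairs only.

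MET1, the maintenance enzyme of CG methylation, lay at 21.8, 21.3, 19.8 and 20.1 FPKM in wild-type replicates 1 to 4 and at 26.8, 27.8, 22.7 and 22.0 FPKM in amiR-SEAP1. The groups did not overlap, and the difference was larger in the FLW set, where the ratio of pair means was 1.27, than in the AI set, where it was 1.12. The log2 difference was 0.24 ± 0.13 (SE, limma adjusted p = 0.605), from 20.7 ± 1.12 to 24.8 ± 3.45 FPKM (SD, n = 2 sets). With the replicate number as a block, which pairs libraries within a header set, the same difference passed (limma adjusted p = 0.0298), as it did with the header set as a term (0.0413). It did not pass with 8 libraries taken as independent (limma adjusted p = 0.0986), nor on pair means (0.833), nor on pair means with the header set as a term (0.373).

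Replication genes mark dividing cells, in which MET1 acts. Their summed FPKM over 15 genes was 372 to 423 in wild type and 433 to 472 in amiR-SEAP1, and 13 of 15 were higher in both sets, against 36.7% of all genes tested. MCM5, a subunit of the replicative helicase, lay at 25.3, 27.0, 23.2 and 24.3 FPKM in wild type and at 34.1, 35.5, 33.1 and 32.3 FPKM in amiR-SEAP1. Its log2 difference of 0.42 was the largest of the 15. Those of the other listed MCM subunits ran from 0.09 for MCM6 to 0.23 for MCM7 (PRL in RefSeq), and that of CDT1A was -0.04. None of the 15 passed limma's test (at an unadjusted p under 0.05, 2 higher and 0 lower, against 4.96% and 4.69% of all genes). With the replicate block 5 were higher and 0 lower (13.7% and 11.1% of all genes), MCM5 among them (limma adjusted p = 0.00461). The part of these genes in the MET1 values was not tested. Their median log2 difference was 0.14 in FLW and 0.13 in AI, while that of MET1 was 0.33 and 0.16. In bulk RNA, a change in the share of a cell type and a change in RNA per cell cannot be told apart.

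MET2, a close relative of MET1 that is a reported target of miR773, was the lowest of the 10. It lay at 0.457, 0.482, 0.200 and 0.217 FPKM in wild type and at 0.447, 0.499, 0.218 and 0.225 FPKM in amiR-SEAP1. The genotypes overlapped, whereas every FLW library lay above every AI library: the AI level was 0.444 of the FLW level in wild type and 0.468 in amiR-SEAP1. Between the genotypes the ratio was 1.01 in the FLW set and 1.06 in the AI set. Without the filter on low values its log2(FPKM + 1) difference was 0.01 ± 0.11 (SE, limma adjusted p = 1.00), a scale that understates changes of so low a gene. AT4G08990 and MEE57, which were listed with the maintenance genes as further relatives, were low too. The pair means of AT4G08990 were 0.294 FPKM in FLW and 0.131 in AI in wild type, and 0.309 and 0.224 in amiR-SEAP1. MEE57 reached at most 0.0135 FPKM in a library. Reads shared among such relatives make these values uncertain.

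CMT3, which maintains CHG methylation, lay at 31.1, 30.9, 26.9 and 27.4 FPKM in wild type and at 32.8, 31.4, 30.2 and 30.1 FPKM in amiR-SEAP1. The genotypes overlapped, and the pair means were higher in amiR-SEAP1 in both sets, by ratios of 1.04 and 1.11 (log2 difference 0.10 ± 0.11, SE, adjusted p = 0.878). CMT2, which acts at CHH sites of large transposons, lay at 12.3, 11.8, 9.89 and 9.57 FPKM in wild type and at 10.999, 10.8, 11.1 and 10.9 FPKM in amiR-SEAP1. Its amiR-SEAP1 values fell between the wild-type values of the sets, so the ratio was 0.903 in FLW and 1.13 in AI, and the log2 difference over both was 0.01 ± 0.14 (adjusted p = 0.992).

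DRM2, the main de novo methyltransferase, had the largest difference of the 8 tested transcripts. It lay at 7.93, 8.26, 7.59 and 7.19 FPKM in wild type and at 9.29, 10.1, 10.98 and 10.6 FPKM in amiR-SEAP1. The genotypes did not overlap, with a ratio of 1.20 in FLW and 1.46 in AI, and levels of 7.74 ± 0.4999 and 10.3 ± 0.789 FPKM (SD, n = 2 sets). The log2 difference was 0.36 ± 0.16 (SE, limma adjusted p = 0.518; unadjusted p = 0.0499). It passed with the replicate number as a block (adjusted p = 0.0249), with the header set as a term (0.0438) and with 8 libraries taken as independent (0.0148), but not on pair means (0.820). DRM1, its paralogue, lay at 0.805, 0.976, 0.592 and 0.496 FPKM in wild type and at 0.629, 0.423, 0.684 and 0.819 FPKM in amiR-SEAP1. It was lower in amiR-SEAP1 in FLW and higher in AI, and its pairs spread widely for so low a level, so no direction is drawn from it.

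ROS1, the demethylase gene with the highest level, lay at 34.1, 33.9, 25.4 and 25.4 FPKM in wild type and at 28.5, 28.9, 25.6 and 25.6 FPKM in amiR-SEAP1. The amiR-SEAP1 level was 0.845 of wild type in FLW and 1.01 of it in AI, and the log2 difference over both was -0.11 ± 0.13 (SE, adjusted p = 0.883). DME lay at 12.2, 13.3, 10.2 and 9.98 FPKM in wild type and at 11.8, 12.4, 11.4 and 11.2 FPKM in amiR-SEAP1, a ratio of 0.943 in FLW and 1.12 in AI (log2 difference 0.04 ± 0.16, adjusted p = 0.979). For both genes the genotypes overlapped.

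DML2 lay at 9.18, 9.20, 7.31 and 6.74 FPKM in wild type and at 9.28, 9.28, 9.84 and 10.3 FPKM in amiR-SEAP1. The genotypes did not overlap, but the FLW pairs were nearly level (ratio 1.01) and the difference lay in the AI set (ratio 1.43), which gave a log2 difference of 0.24 ± 0.17 (SE, adjusted p = 0.750). DML3 lay at 2.58, 2.28, 1.42 and 1.33 FPKM in wild type and at 2.21, 2.01, 2.08 and 1.69 FPKM in amiR-SEAP1. It overlapped between the genotypes, with a ratio of 0.868 in FLW and 1.37 in AI (log2 difference 0.07 ± 0.29, adjusted p = 0.978).

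**Figure D2:**
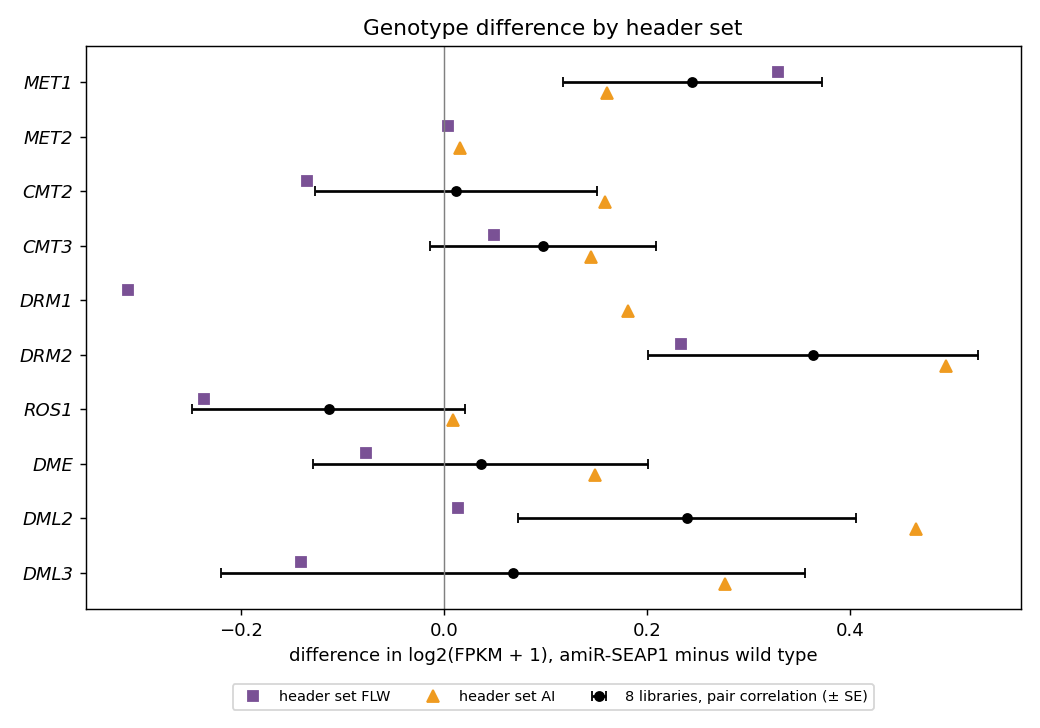
Difference in log2(FPKM + 1), amiR-SEAP1 minus wild type (x axis), for each gene (y axis). Squares and triangles are the differences of pair means in header sets FLW and AI, and circles with bars are the estimate over 8 libraries ± SE. MET1, DRM2, CMT3, DML2 and MET2 lie at or above 0 in both sets, and CMT2, DRM1, ROS1, DME and DML3 lie on opposite sides of it. MET2 and DRM1 were too low to be tested and have no circle.

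Between the header sets the share of members called was near that of all genes. In the model with genotype, header set and the within-pair correlation, 7 of the 8 tested members had a lower estimate in AI than in FLW, and 1 of them passed limma's test, ROS1, which fell by 0.28 ± 0.06 on the log2 scale (SE, adjusted p = 0.0138). Of all genes tested, 13.5% were called lower and 11.8% higher in AI. The median estimate was -0.16 for the 8 tested members and -0.02 for all genes tested. The ROS1 call was lost on pair means (adjusted p = 0.252), where no gene was called. MET1 (-0.19 ± 0.07, adjusted p = 0.0693), DME (-0.20 ± 0.09, adjusted p = 0.149) and DML3 (-0.32 ± 0.17, adjusted p = 0.210) had lower estimates that did not pass, and DRM2 was level (0.01 ± 0.10). The AI to FLW ratio was below 1 in wild type for all 10 genes, from 0.444 for MET2 to 0.926 for MET1. The shares of all genes with a lower estimate in AI, or with such a ratio below 1, were not counted. In amiR-SEAP1 it ranged from 0.468 for MET2 to 1.43 for DRM1 and was above 1 for CMT2, DRM1, DRM2 and DML2.

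Other tissue markers moved between the same libraries. Tapetum and pollen wall markers (10 genes, none at 0) summed to 537 to 547 FPKM in the wild-type FLW pair and 404 in the wild-type AI pair, but to 419 to 420 and 695 to 698 FPKM in the amiR-SEAP1 pairs. Mature pollen markers (12 genes, none at 0) summed to 2581 to 2583 and 1655 to 1679 FPKM in wild type and to 1914 to 1920 and 1403 to 1425 FPKM in amiR-SEAP1, in the same order of sets. Green tissue markers (10 genes, none at 0) summed to 12270 to 15126 FPKM in wild type and 13360 to 15943 FPKM in amiR-SEAP1. Of the 30 tested markers of these lists 0 passed limma's test between the genotypes. At an unadjusted p under 0.05 limma gave 1 higher and 4 lower (4.96% and 4.69% of all genes). The 4 lower were all mature pollen markers. With the replicate block 8 of the 11 tested pollen markers were called lower, and 0 of the tapetum and green tissue markers were called (13.7% of all genes were called higher and 11.1% lower). Their part in the values of the methylation genes was not tested.

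As sums, the 6 methyltransferase genes held 74.4, 73.7, 65.0 and 64.9 FPKM in wild-type replicates 1 to 4 and 81.0, 81.0, 75.9 and 74.7 FPKM in amiR-SEAP1. The 4 demethylase genes held 58.1, 58.7, 44.4 and 43.5 FPKM in wild type and 51.7, 52.6, 48.9 and 48.8 FPKM in amiR-SEAP1. The ratio of the sums was 1.28 and 1.25 in the wild-type FLW pair, 1.47 and 1.49 in the wild-type AI pair, and 1.53 to 1.57 in the 4 amiR-SEAP1 libraries. It was thus highest in amiR-SEAP1 in both sets, with a wider gap in FLW, where MET1 was higher and ROS1 lower. This ratio was formed after the values were seen and was not tested.

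The relative abundance of miR773a, the reported regulator of MET2, was higher in amiR-SEAP1. Its counts were 2972 and 2194 in wild type and 26179 and 10301 in amiR-SEAP1, which is 1376 and 1074 against 18220 and 10090 CPM (counts per 1e+06 miRNA counts). Both amiR-SEAP1 libraries lay above both wild-type libraries, at 14155 ± 5749 against 1225 ± 213 CPM (SD, n = 2), or 246 ± 141 against 38.6 ± 11.6 CPM of all alignments. The log2 change was 3.40 ± 0.51 (SE, edgeR quasi-likelihood adjusted p = 0.0287), the third largest of the 294 miRNAs tested, of which 4.76% were called higher and 0.34% lower. Without wild-type replicate 1 or 2 the call was lost, as was that of every other miRNA, only 1 wild-type library being left. The log2 changes of miR773a were then 3.63 and 3.13. Beside this, the MET2 transcript was level between the genotypes within each header set (ratios 1.01 and 1.06). The labels do not tie the small RNA libraries to either header set.

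The miR773b arms were near the limit of detection. miR773b-3p had 1 and 0 counts in wild type and 8 and 3 in amiR-SEAP1, a ratio of 18.8 on the scale of miRNA counts (95% exact binomial interval 2.73 to 810) and of 10.2 on that of all alignments (1.49 to 441). miR773b-5p had 0 and 0 counts against 7 and 5, which is at least 6.84-fold higher as a share of miRNA counts and at least 3.72-fold higher as a share of all alignments, taking 3 counts over the wild-type libraries as the floor. Both were too low for edgeR's test, and such intervals and floors cover counting error only.

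miR823, which targets CMT3, had 148 and 209 counts in wild type and 203 and 179 in amiR-SEAP1. As shares of the miRNA counts these are 68.5 and 102 against 141 and 175 CPM (log2 change 0.69 ± 0.26, SE, edgeR adjusted p = 0.234), and with the replicate number as a block it passed (adjusted p = 0.0459). As shares of all alignments they are 2.33 and 2.89 against 2.68 and 2.55 CPM, and the log2 change was 0.00 ± 0.27. The direction for miR823 therefore rests on the scale, because miRNAs as a whole held less of the alignments in amiR-SEAP1. CMT3 transcripts overlapped between the genotypes, as given above. miR402, which targets DML3, had 5 and 4 counts against 8 and 5, a ratio of 2.47 on the scale of miRNA counts (95% exact binomial interval 0.977 to 6.55) and of 1.34 on that of all alignments (0.532 to 3.56), so that no difference was detectable at this depth.

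**Figure D3:**
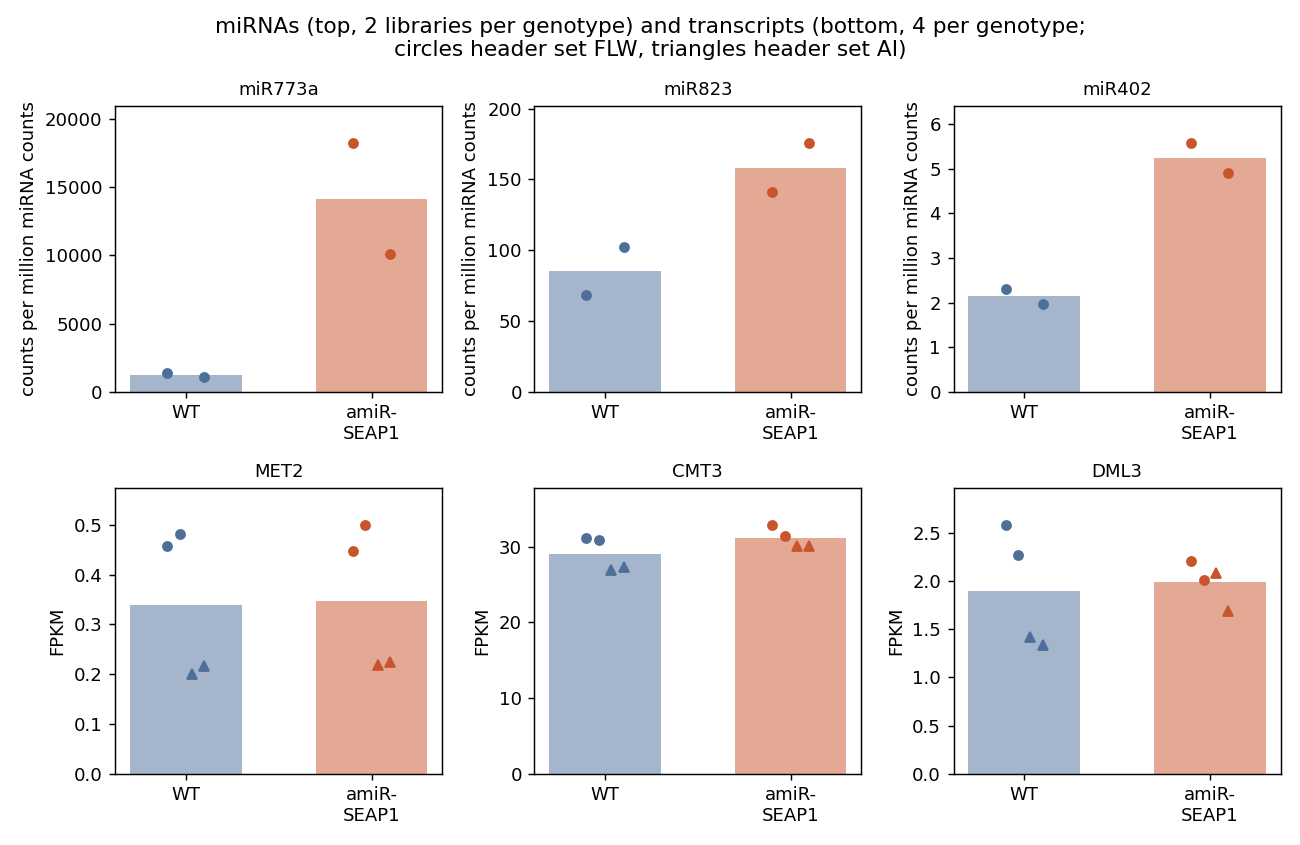
Top, CPM of miRNA counts of miR773a, miR823 and miR402 (y axes, from 0) in 2 small RNA libraries per genotype. Bottom, FPKM of the transcripts they are reported to target, MET2, CMT3 and DML3, in 4 mRNA libraries per genotype (circles FLW, triangles AI); bars are means. miR773a is higher in both amiR-SEAP1 libraries while the MET2 values of the genotypes overlap.

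Most partners of these enzymes had positive estimates. In the pathway of de novo methylation directed by small interfering RNAs, 0 of 28 tested genes passed limma's test. At an unadjusted p under 0.05, 2 were higher and 0 lower (4.96% and 4.69% of all genes). With 8 libraries taken as independent 3 were higher and 0 lower (7.5% and 4.7%), and with the replicate block 7 and 0 (13.7% and 11.1%). Their median log2 difference was 0.15, against 0.03 for all genes, and 22 of 28 were higher in both sets (36.7% of all genes). SHH1, which recruits RNA polymerase IV, lay at 9.71, 11.02, 8.49 and 8.59 FPKM in wild type and at 13.7, 13.9, 12.3 and 12.6 FPKM in amiR-SEAP1 (log2 difference 0.44 ± 0.18, SE, adjusted p = 0.456). SUVR2 (0.35 ± 0.15), AGO9, an ARGONAUTE of ovules (0.41 ± 0.21), and KTF1, an adaptor of RNA polymerase V (0.32 ± 0.16), were the next by p. All 4 passed with the replicate block, with adjusted p-values of 0.00817 for SHH1, 0.0124 for SUVR2, 0.0188 for AGO9 and 0.0217 for KTF1. By RefSeq, SHH1, SUVR2, AT4G08990 and MCM7 above, and below SUVH4, AT3G12290, ROS3, SSRP1 and FWA, overlap a neighbouring gene. Whether counting used strand is unknown, which leaves these values uncertain.

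AGO9 lay at 80.0, 80.7, 59.3 and 60.2 FPKM in wild type and at 118, 118, 73.0 and 71.1 FPKM in amiR-SEAP1, so the sets differed as much as the genotypes and the amiR-SEAP1 AI values were below the wild-type FLW values. Among 13 tested genes of maintenance and its histone mark partners 0 passed limma's test, with a median of 0.19. At an unadjusted p under 0.05, 0 were higher and 0 lower (4.96% and 4.69% of all genes). With the replicate block 5 were higher and 2 lower (13.7% and 11.1% of all genes). VIM1, which brings MET1 to hemimethylated DNA, had a log2 difference of 0.23 ± 0.11 and SUVH4, the histone methyltransferase that works with CMT3, of 0.31 ± 0.17. IBM1, a histone demethylase that keeps CMT3 methylation out of gene bodies, had one of -0.25 ± 0.12, with 10.8, 10.7, 10.98 and 10.8 FPKM in wild type and 8.85, 8.54, 9.09 and 9.33 FPKM in amiR-SEAP1. The IBM1 groups did not overlap, yet its adjusted p was 0.567. AT3G12290 had a difference of -0.25 ± 0.12. With the replicate block these 4 passed, with adjusted p-values of 0.0142 for VIM1, 0.0175 for SUVH4, 0.0184 for IBM1 and 0.0220 for AT3G12290.

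Of 12 genes that act in base excision or target demethylation, 0 passed limma's test. At an unadjusted p under 0.05, 1 was higher and 0 lower (4.96% and 4.69% of all genes). With 8 libraries taken as independent 3 were higher and 0 lower (7.5% and 4.7% of all genes), and with the replicate block 4 and 0 (13.7% and 11.1%). All 12 had a positive estimate (55.1% of all genes), with a median of 0.14, and 10 of 12 were higher in both sets (36.7% of all genes). LIG1, the DNA ligase that seals the repaired strand, lay at 25.5, 23.7, 25.4 and 25.8 FPKM in wild type and at 30.9, 30.3, 33.1 and 33.2 FPKM in amiR-SEAP1 (log2 difference 0.33 ± 0.12, SE, adjusted p = 0.392). ROS3, an RNA-binding protein that acts with ROS1, differed by 0.29 ± 0.14, SSRP1 (HMG in RefSeq), a subunit of the histone chaperone FACT, by 0.21 ± 0.11, and AE7 by 0.27 ± 0.16. The 4 calls with the replicate block were these genes, with adjusted p-values of 0.00680 for LIG1, 0.0208 for ROS3, 0.0164 for SSRP1 and 0.04996 for AE7.

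**Figure D4:**
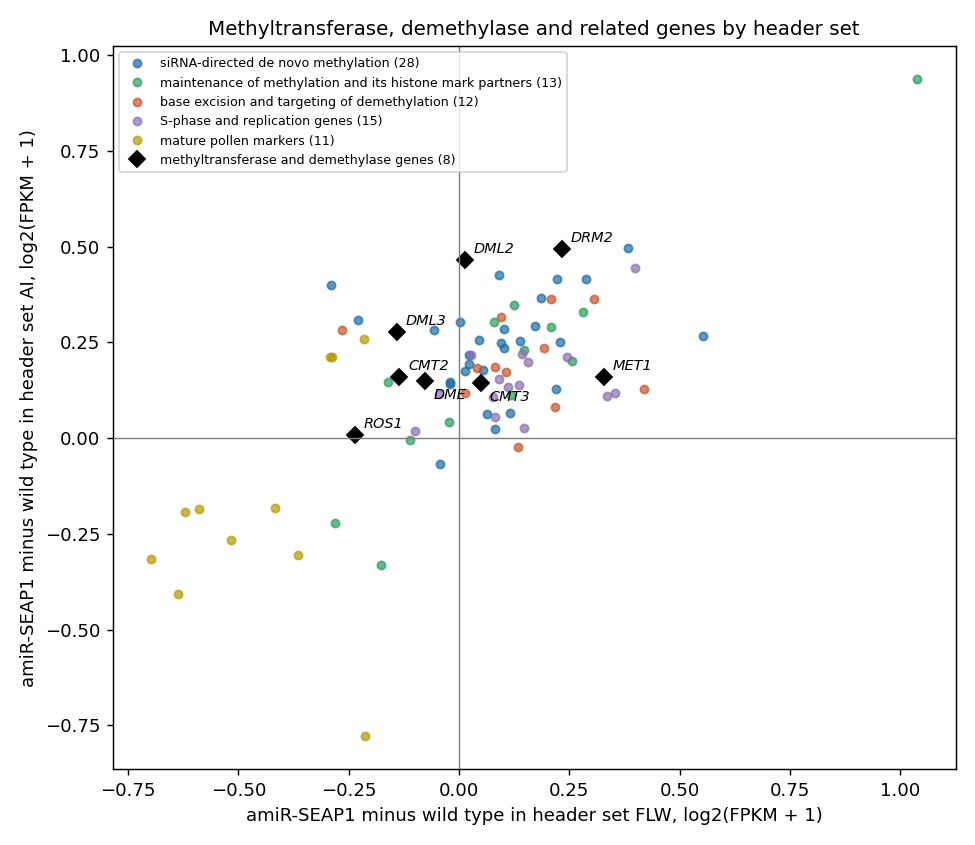
Genotype difference in log2(FPKM + 1) in header set FLW (x axis) and AI (y axis) for the tested methyltransferase and demethylase genes (black diamonds, named) and for related gene lists (circles, with the number of genes in brackets). MET1, DRM2, CMT3 and DML2 lie where both sets are positive, as do 22 of the 28 genes of de novo methylation, while 8 of 11 mature pollen markers are negative in both.

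Genes whose activity is known to follow DNA methylation gave no common direction. Of 12 listed, 5 reached 1 FPKM and 0 passed limma's test. At an unadjusted p under 0.05 limma gave 0 higher and 0 lower (4.96% and 4.69% of all genes). SUP, a floral gene that can be silenced by methylation, lay at 4.00, 3.20, 5.16 and 5.45 FPKM in wild type and at 2.86, 2.63, 3.35 and 2.79 FPKM in amiR-SEAP1 (log2 difference -0.46 ± 0.31, SE, adjusted p = 0.727; 0.0350 with the replicate block). AG had a log2 difference of -0.12 ± 0.14, QQS of 0.26 ± 0.34, EPF2, whose promoter ROS1 keeps free of methylation, of 0.07 ± 0.42. FWA, which is silent in plant tissues outside the endosperm through methylation by MET1, stayed at 0.399 to 0.563 FPKM in all pair means.

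Across the 8 libraries, which fall into 4 pairs, the genes with the pattern most like each member were described by Pearson's r of log2(FPKM + 1). The highest were AT1G76810 for MET1 (r = 0.995), IBR10 for MET2 (0.996), AT3G22060 for CMT2 (0.993), ATU2AF65A for CMT3 (0.992), AT3G12835 for DRM1 (0.971), AT2G44065 for DRM2 (0.994), TIN1 for ROS1 (0.999), NF-YC11 for DME (0.992), SDG16 for DML2 (0.991) and AT5G54920 for DML3 (0.985). They were the best of 20742 or 20743 genes, and with 4 pairs so high a value is easily met. Among the members themselves CMT2 and DML3 were most alike (r = 0.946), whereas ROS1 and DRM2 had an r of -0.22 and MET1 and DRM1 one of -0.35. These points share their pairs, sets and genotypes.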

How the data were processed

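The mRNA files hold FPKM for each gene, as the authors deposited them, and the small RNA values as raw counts per mature miRNA, deposited by the authors, whose counting tool the labels do not name. The submitters' processing notes name HISAT2 and TAIR10. No source used here names the FPKM program, annotation or strand setting. Steps between low FPKM values put relative depth within a factor of 1.16; the reads behind an FPKM value are unknown. Small RNA libraries held 2160372 and 2043025 (wild type) and 1436816 and 1020947 (amiR-SEAP1) miRNA counts; lines that name no miRNA (96.6% to 98.55% of counts) stayed out of tests. The members, gene lists and tests were chosen with earlier results of these data known. The list of demethylation partners lost 1 gene whose ID did not match its name.

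mRNA was tested with limma 3.58.1 (R 4.3.3) on log2(FPKM + 1), a scale that understates changes of low genes, for the 20743 genes averaging 1 FPKM or more, with a variance trend, within-pair correlation and Benjamini-Hochberg adjustment over all genes. The test of the difference between header sets and the interaction were added after the data were seen. Small RNA was tested with edgeR 4.0.16 (quasi-likelihood, TMM, filterByExpr); DESeq2 1.42.0 was an alternative. Scripts were tested on simulated data, in which the mRNA test recovered nearly all changed genes but made more false calls than its FDR allows. It made more still with 8 libraries taken as independent. The simulation drew the shift of each pair independently, whereas shifts of the real pairs are partly shared by the genotypes. It therefore cannot tell how many calls over all genes are false in these data. Same-numbered libraries of the genotypes deviated together (r = 0.398 to 0.430), so the replicate block is given where it changes a call. Own numbers correlated best for 2 of 4, and same-numbered libraries share a header set. The mRNA block fit carries no within-pair correlation. Its p-values are therefore too small where the libraries of a pair are not independent samples. Tests within each header set alone were also run and, after their results were seen, left out, because with 1 pair per genotype they measure the spread within pairs only. Named partner genes are the 4 of each list with the smallest p. Outside this rule, FWA, AT4G08990 and MEE57, too low to be tested, were named as well, as were SDC, MEA and HOG1. Of the gene IDs, symbols come from RefSeq (TAIR10.1) for 28932. Members overlap no other gene there.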

Additional observations from a re-analysis of the deposited data

Results flagged for a closer look

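The genotype difference of 7 of the 8 tested members differed between the header sets in limma's interaction test on 8 libraries, in which 24% of all genes were called higher and 18.9% lower. That test sets the difference against the spread within pairs, so it compares these pairs of libraries and not conditions, and its adjusted p-values are too small for independent plants. As the log2 difference in AI minus that in FLW, MET1 had -0.168 (adjusted p = 0.0253), CMT2 0.294 (0.00498), DRM2 0.261 (0.0264), ROS1 0.245 (0.00126), DME 0.226 (0.0339), DML2 0.452 (0.00119) and DML3 0.417 (0.0357). CMT3, with 0.10 (0.121), was not called. MET1 was the member with a smaller difference in AI; the other called members had a more positive one. Between the sets, the headers of the amiR-SEAP1 libraries also change from R15 to R155, and the genotype difference of the tapetum marker median changes from -0.46 in FLW to 0.80 in AI; their part was not tested. No member had a library flagged as far from the other 3 of its genotype (20 groups examined). Because these libraries fall into pairs by header set, a library mostly has a close partner and the sets fix the range. The check could therefore hardly flag a library, and no conclusion on deviating libraries is drawn from it.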

How the results depend on the processing

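With the replicate block, 2852 genes were higher and 2306 lower between the genotypes (limma), against 48 and 17 in the main test. With 8 libraries taken as independent there were 1556 and 975, with the header set as a term 1543 and 1575, with no filter on low values 142 and 71, with a mean of at least 0.1 FPKM 36 lower, and with no mean-variance trend 21 and 4. On pair means 0 and 0 were called, with or without the header set as a term (without it, an unadjusted p under 0.05 gave 692 and 558). Leaving out 1 library gave 13 to 21 higher and 1 to 4 lower. Between the header sets pair means gave 0 and 0 (1944 and 2366 at an unadjusted p under 0.05), and 8 independent libraries 4646 higher and 5451 lower in AI. In the miRNA test the replicate block called 38 higher and 14 lower, scaling by all alignments 52 lower and totals without TMM 0 lower; leaving out 1 library gave 0 to 16 higher and 0 to 7 lower. Of the members, CMT2 (-0.0207) and DME (-0.000459) changed sign with quantile normalization, CMT2 without wild-type replicate 4 (-0.00185; up to 0.0280 over the left-out libraries), and the header set difference of DRM2 without amiR-SEAP1 replicate 1 (-0.0180) or 3 (-0.00195; up to 0.0356); these values are near 0, and the other causes were not tested. With a pseudocount of 0.1 the within-set differences moved beyond their spread for DRM1 (-0.68 in FLW, 0.40 in AI), MET2 (0.06 in AI), DRM2 (0.54 in AI) and DML3 (0.42 in AI). The block changed the calls of MET1, DRM2 and miR823 and of no other gene or miRNA named as a member or its regulator. Depth limits miR402 and miR773b.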

Other observations

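Some values of methylation-related genes outside the rule for named genes were picked after they were seen. SDC, an F-box gene silenced by DNA methylation in most tissues, lay at 0.857, 0.531, 0.468 and 0.472 FPKM in wild type and at 1.23, 1.35, 0.595 and 0.745 FPKM in amiR-SEAP1, higher in amiR-SEAP1 within each header set and too low to be tested. SDC overlaps a neighbouring gene in RefSeq, which leaves its values uncertain. MEA, a Polycomb gene that DME activates in the central cell, lay at 0.637, 0.555, 0.339 and 0.256 FPKM in wild type and at 0.246, 0.376, 0.128 and 0.170 FPKM in amiR-SEAP1, lower within each set and equally low in level.

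HOG1, S-adenosylhomocysteine hydrolase of the methyl cycle, lay at 243, 144, 321 and 318 FPKM in wild type and at 566, 262, 616 and 608 FPKM in amiR-SEAP1. Both FLW pairs differ within themselves far beyond the 1.63% to 1.75% of other genes, replicate 1 being the higher in each, and its log2 difference was 0.99 ± 0.99 (SE, limma adjusted p = 0.853). Under the replicate block the SE was 0.07 and the difference passed (limma adjusted p = 0.00367), amiR-SEAP1 being higher in each of the 4 same-numbered pairs. That fit rests on matching libraries by number, although own numbers correlated best for only 2 of 4, and counts the libraries of a set as separate samples. The difference did not pass with 8 libraries taken as independent (limma adjusted p = 0.104) or with the header set as a term (0.253).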
